A study of Homo sapiens with 12 samples.

Results

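On a dye-swap pair of arrays, RNA of Ls174T cells depleted of β-catenin was hybridized together with RNA of si-control cells. Ls174T is a human colorectal cancer (CRC) line in which a point mutation stabilizes β-catenin, so that the Wnt pathway is constitutively active. Both RNAs came from Ls174T cells transfected for 72 h with 15 nM of an siRNA pool, against β-catenin (CTNNB1) in the depleted cells and non-targeting in the control cells. On 1 array the depleted RNA carried Cy5 and the control RNA Cy3, and on the other array the dyes were exchanged. The pair is 2 of the 12 arrays of the series. The other 10 held Ls174T or HEK293T RNA with universal human reference RNA in the second channel, among them Ls174T cells depleted of MLLT10/AF10, BRG1, or p300 and HEK293T cells with control siRNA in control medium or after 9 h of Wnt3A. Of the 43376 features that are not control spots, 17706 were well-measured on both arrays of the pair, which means a median signal of more than 2-fold over local background in either channel and no outlier flag. They comprise 16513 probes, and those with a symbol belong to 9439 genes. Both arrays measured the same RNAs, so there is 1 biological replicate, the spread between the arrays is technical, and no p-values are given.

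β-catenin is degraded by a complex of APC, AXIN, and GSK3 when Wnt is absent, and enters the nucleus to activate TCF/LEF-bound genes when the complex is inactive. In the intestine this switch maintains the proliferating stem and progenitor cells at the crypt base, and cells that leave it differentiate into absorptive enterocytes and mucus-secreting goblet cells. Mutations of APC or β-catenin that keep the switch on are the usual first step of colorectal cancer.

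The change of a gene is given here on the log2 scale as depleted over control RNA, averaged over both arrays and over its probes, and a gene is said to have risen or fallen where this mean exceeded 2-fold. By this rule 432 genes rose, which is 4.58% of the genes measured, and 114 fell, which is 1.21%. Increases therefore made up 79.1% of the changed genes. Their share grew with the size of the change, as 108 genes rose and 17 fell by more than 4-fold, 37 rose and 2 fell by more than 8-fold, and 18 rose and 0 fell by more than 16-fold. The median change was 1.47 among the genes that rose, −1.27 among those that fell, and −0.01 over all genes. Close to the threshold lay 67 genes between 2-fold and 2.1-fold and 96 genes between 1.9-fold and 2-fold. In bulk RNA such as this, a smaller share of cells that express a gene and less of its RNA per cell cannot be told apart.

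The arrays of the pair gave similar values. Across the 9439 genes, which are not independent replicates, the array values correlated with r = 0.897, and the median SD between the arrays was 0.10. Past 2-fold on each array separately were 359 of the genes that rose and 83 of those that fell. The median SD was 0.16 among the 4427 dimmest features, which had mean signals of up to 271, and 0.11 or less in the brighter ones, so dim genes are less precise. Only 9 genes had arrays that lay more than 4-fold apart, that is, a deviation of more than 2-fold from their mean. TNFSF12, a cytokine of the TNF family, had processed signals of 168 in control and 127 in depleted RNA on the first array but 2032 and 83.6 on the dye-exchanged array. Its log2 values of −0.40 and −4.6 give a mean past 2-fold that rests on 1 array. The same holds for KEAP1, the adaptor that targets NRF2 for degradation (−0.18 and 2.86), ELAPOR2 (0.05 and 2.8), and NFKBIA, the inhibitor of NF-κB (−0.07 and −2.39). SLC44A4, a choline transporter family member, was past 2-fold on both arrays but at different sizes (3.67 and 1.25), with control signals of only 12.8 and 37.7.

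**Figure D1:**
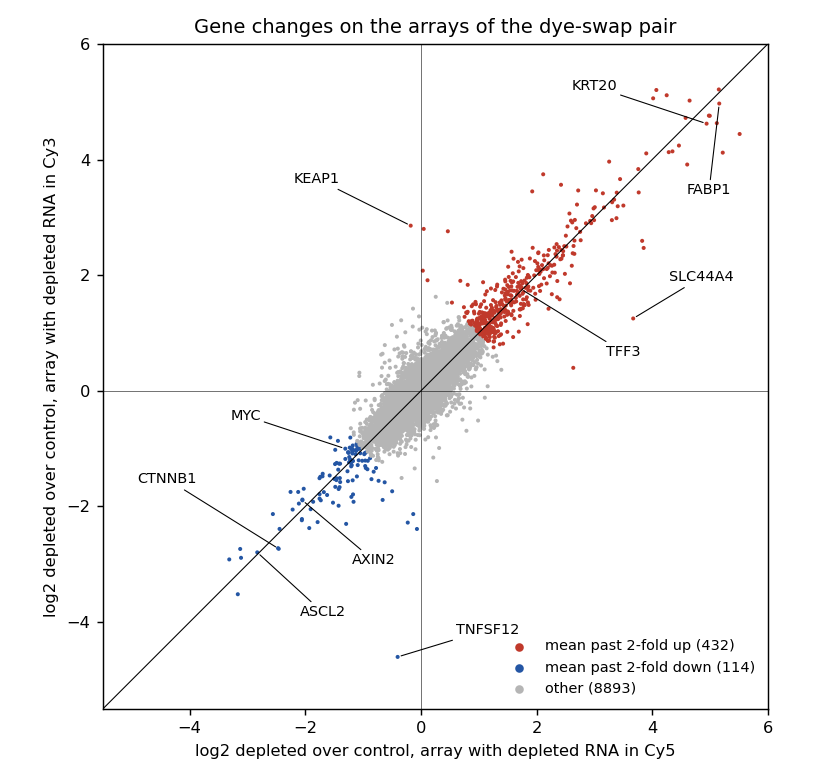
Log2 change of each of the 9439 genes on the array with depleted RNA in Cy5 (x axis) and on the array with depleted RNA in Cy3 (y axis); red points are the 432 genes whose mean rose past 2-fold, blue points the 114 that fell, and the diagonal marks equal values. Most changed genes lie along the diagonal, increases reach further from 0 than decreases, and TNFSF12 and KEAP1 are far from the diagonal.

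The siRNA target was checked first. CTNNB1 had processed signals of 3913 and 3536 in the control RNA and of 683 and 494 in the depleted RNA, so both depleted values lay below both control values. One probe, printed in 8 usable spots, changed by −2.55 and −2.86 on the 2 arrays, with a mean of −2.70 ± 0.02 (SD over the spots), which left 15.3% of the control level. The other probe, with 1 spot, changed by −2.37 and −2.60, which left 17.8%. Of 15 intestinal epithelial markers with a probe, 13 were well above background in both RNAs, among them CDH1, EPCAM, VIL1, and CDX1. Of 10 fibroblast and endothelial markers only VWF was, and of 10 immune markers only CD68, a lysosomal protein best known from macrophages, which rose from 69.4 and 35.4 in control to 402 and 254 in depleted RNA. Of 6 embryonic kidney line markers, GATA2 and ZIC2 were well above background in both RNAs. Ls174T is a cell line, and why it gave signal for these markers of other cell types was not tested.

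In the destruction complex and its nuclear cofactors, no gene but CTNNB1 changed. Of 30 such genes, 24 were measured, with a median of −0.06, and CTNNB1 was the 1 member past 2-fold in either direction. APC, TCF7L2, and LRP5 were among the 6 members below the signal filter.

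Target genes through which the Wnt pathway regulates itself or is commonly read out fell in part. Of 39 genes in this list, 24 were measured, 8 of them fell, and 0 rose, with a median of −0.35. Over all 39 genes without the signal filter, 9 fell, 0 rose, and the median was −0.24, where the 17240 genes with a probe had a median of 0.00 and 190 of them (1.1%) were past 2-fold down. AXIN2, a scaffold of the destruction complex that Wnt induces as negative feedback, had signals of 3286 and 4004 in control RNA and of 793 and 1078 in depleted RNA. Its log2 change was −2.05 and −1.89 on the 2 arrays, and the RNAs did not overlap. ZNRF3, a ubiquitin ligase that removes Wnt receptors from the membrane, fell by less (−1.19 and −1.0, mean −1.09).

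Among DNA-binding factors that are themselves Wnt targets, LEF1 went from 481 and 308 in control to 182 and 108 in depleted RNA, a log2 change of −1.46. For TCF7, which encodes TCF1, the signals were 321 and 278 in control and 115 and 136 in depleted RNA, a change of −1.25. Both genes were dim, and their means were within 2-fold with another background correction (LEF1 −0.95, TCF7 −0.72). SP5, a zinc finger repressor downstream of β-catenin, had 3 probes that disagreed. Of these, 2 changed by −3.15 and −2.55 and the other by 0.02, and the mean of −1.89 therefore depends on which probe is read.

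MYC, the growth-promoting transcription factor, was the brightest of the 8 genes, with 15879 and 10223 in control and 6413 and 5115 in depleted RNA. Its change of −1.31 and −1.0 (mean −1.15) lay just past the threshold. When features below the signal filter were averaged in, its mean was −0.54, within 2-fold. SLC12A2, an ion cotransporter, and ENC1, an actin-binding protein, had the largest decreases of the list, each with a mean of −2.15. CCND1, the G1 cyclin often cited as a Wnt target, stayed near its control level on both arrays (−0.18 and −0.07, mean −0.12). LGR5, the R-spondin receptor that marks crypt stem cells, was below the signal filter, so no value is given.

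**Figure D2:**
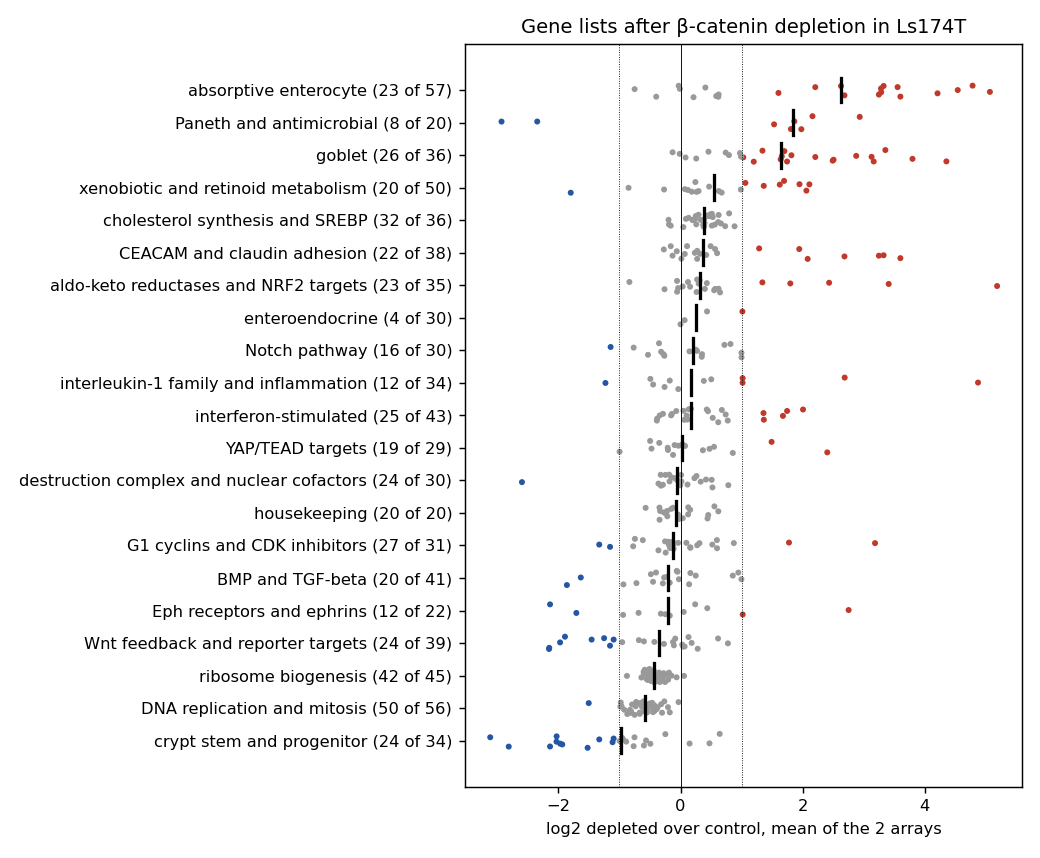
Log2 change (x axis, mean of the 2 arrays) of each measured gene in 21 lists (rows, with the number measured of the number listed); red points rose and blue points fell past 2-fold (dotted lines), grey points did neither, and black bars are medians. The crypt stem and progenitor list has the lowest median (−0.98) and the absorptive enterocyte list the highest (2.63).

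The letters of the TCF/LEF motif were looked up around the start sites of these genes. RefSeq promoters (build GRCh38.p14, 250 bases before to 50 after the annotated start) were at hand for 91 of the 114 genes that fell and 322 of the 432 that rose. CTTTGAT or CTTTGTT, on either strand, stood in 3 of the 91 (3.30%), 21 of the 322 (6.52%), and 344 of the 7739 measured genes with a promoter (4.45%), against 7.71% of all 27305 promoters. The E-box bound by MYC, CACGTG, which reads the same on both strands, stood in 10 of the 91 (11%), 22 of the 322 (6.83%), and 10.7% of the measured genes. The 3 genes that fell and held the TCF/LEF letters are SP5, CYP26B1, a retinoic acid hydroxylase, and RFC3, a subunit of the clamp loader in DNA replication. Their windows are shown with those of TM4SF4 and MALL, the genes with the largest increases that hold the letters, so that both directions can be compared. Each is printed 5′ to 3′ on the gene's strand, with the motif, or its reverse complement, in capitals.
SP5 (chr2:170715217-170715246, plus strand): gagccgctattCTTTGATgattgggtagcg
CYP26B1 (chr2:72148064-72148093, minus strand): acaaacaaacaAACAAAGttgcaccccagt
RFC3 (chr13:33817932-33817961, plus strand): tagacggtgcgAACAAAGagaaaataaata
TM4SF4 (chr3:149474627-149474656, plus strand): ggggtgcaaaaAACAAAGcacttcaggtca
MALL (chr2:110118305-110118334, minus strand): ttcaccacatgAACAAAGttttggctctcc
A match is a description of letters and not a binding site, and sites outside this window were not searched. In SP5 the match starts 109 bases before the annotated start site.

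Genes of the crypt base had the lowest median of the 21 lists. Of 34 stem and progenitor genes, 24 were measured, 11 of them fell, and 0 rose, and 21 had a mean below 0, with a list median of −0.98. Without the signal filter 13 of 34 fell, 0 rose, and the median was −0.70, beside 190 of 17240 genes (1.1%) past 2-fold down. ASCL2, the transcription factor that controls the crypt stem cell state, had signals of 56468 and 50229 in control and of 7936 and 7241 in depleted RNA. Its changes of −2.83 and −2.79 differed by less than the median spread between the arrays. PTPRO, a receptor tyrosine phosphatase, fell further but from a lower level (874 and 562 in control, 87.8 and 74.5 in depleted RNA, mean −3.12). SMOC2, a matricellular protein, ETS2, a transcription factor, and RGMB, a BMP co-receptor, had means of −1.94, −2.03, and −2.03. LRIG1, a brake on ERBB receptors in stem cells, fell by less (−1.52).

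EphB receptors position crypt cells against ephrin-B ligands of the villus. In the Eph family here, the receptors EPHB3 and EPHA4 fell and the ligands EFNB2 and EFNB1 rose. EPHB4 and EPHB6 stayed near their control level (−0.25 and −0.18). EPHB3 had signals of 15317 and 10080 in control and of 3290 and 2428 in depleted RNA, a change of −2.14. EPHB2 changed by −1.16 and −0.72, and its mean of −0.94 lay within 2-fold. EPHA4 fell (−1.71). The ligand EFNB2 rose from 639 and 424 in control to 4995 and 2980 in depleted RNA, with 2.75 and 2.75 on the 2 arrays. EFNB1 was at the threshold (0.99 and 1.05). Of the 22 genes of the family, 12 were measured, so 2 rose, 2 fell, and 8 did neither.

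Absorptive enterocyte genes had the highest median change of the 21 lists among measured members, though not without the signal filter. Of 57 such genes, 56 had a probe, 23 were measured, 14 of them rose on each array, and 0 fell, with a median of 2.63. The filter keeps a gene that is bright in either RNA, so genes silent in control RNA enter only if they rose. Over all 56 genes without the filter, 21 were past 2-fold up and 0 down, and the median was 0.51, below the 1.20 of the goblet list, beside 526 of 17240 genes (3.05%) past 2-fold up. FABP1, a fatty acid binding protein of enterocytes, had signals of 1414 and 1148 in control and of 50581 and 35966 in depleted RNA, a change of 5.07. KRT20, a keratin of differentiated colonic epithelium, went from 426 and 373 to 13107 and 9179, a change of 4.78. In both genes the depleted values exceeded the control values more than 16-fold on each array.

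The remaining increases span several parts of the absorptive cell. MALL, a protein of lipid rafts in the apical membrane, changed by 4.21, MYO1A, the brush border myosin, by 2.63, and CDHR5, a cadherin that links microvilli, by 1.6. CA1, a carbonic anhydrase of colonocytes, rose by 3.28 and the galectins LGALS4 and LGALS3 by 3.29 and 2.21. PLAC8 was not well above background in control RNA on either array and was at least 11-fold higher in depleted RNA. Such a bound sets the depleted level against the lowest signal that counted as well above background, or against the control signal where that was higher. The other 9 measured members stayed within 2-fold, and 4 of them were below 0. These were SLC5A1 (−0.75), EPS8 (−0.40), FABP6 (−0.03), and TRPV6 (−0.01). VIL1 changed by only 0.41. Classic markers of the mature small intestinal enterocyte, among them SI, LCT, ALPI, FABP2, APOA4, and the transcription factor HNF4A, were below the signal filter.

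Most measured goblet cell genes rose. Of 36 genes, 31 had a probe, 26 were measured, 17 of them rose, and 0 fell, with a median of 1.65. Over the 31 without the filter, 16 were past 2-fold up and 1 down, with a median of 1.20. Of all genes with a probe, 3.05% were past 2-fold up and 1.1% down. Among the secreted products, the trefoil peptide TFF3 was already bright in control RNA (28860 and 28856) and reached 83091 and 97890 in depleted RNA, a change of 1.74. TFF2 rose from 128 and 135 to 2815 and 2559, a change of 4.35, and TFF1 by 3.85 and 2.47. MUC2, the gel-forming mucin of the intestine, was at the threshold (1.05 and 1.01, mean 1.03) and within 2-fold under both other scalings. The membrane mucin MUC17 rose more (3.8).

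SPDEF, a transcription factor of goblet cell maturation, changed by 2.21 and 2.21, and KLF4, a zinc finger factor of differentiating epithelium, by 1.52 and 1.8. Of the members that act on mucins, AGR2, a disulfide isomerase needed to fold MUC2, rose by 2.49, ST6GALNAC1, which adds sialic acid to mucin glycans, by 2.51, and FCGBP, which crosslinks the mucus, by 1.82. ZG16, a lectin of mucus, changed by 2.88. GCNT3, a mucin glycosyltransferase, had a measured increase of 10.2-fold (3.35). Its control signals of 35.5 and 35.3 were not well above background, so the size of this increase is uncertain. B3GNT6, another mucin glycosyltransferase, stayed near its control level (0.08), and GALNT12 was below the signal filter.

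Other secretory lineages gave fewer values. Of 30 enteroendocrine genes, 4 were measured. CHGA, chromogranin A of the secretory granule, changed by −0.00 and 0.87 and GHRL, the ghrelin gene, by 0.11 and 1.91, so neither was past 2-fold on both arrays. Of 20 Paneth cell and antimicrobial genes, 8 were measured, and every one changed, 6 up and 2 down. DEFA6, a Paneth cell defensin, fell from 499 and 290 to 57.2 and 43.6, and REG1A, a lectin of the crypt base, fell by 2.35. REG4 (2.93), LCN2 (2.16), DEFB1 (1.98), and PLA2G2A (1.86) rose. REG4 is also expressed by other secretory cells of the colon, and LCN2 by inflamed epithelium. Over all 20 genes without the filter, most of which had not passed it, the median was −0.00. Of the 20, 6 (30%) were past 2-fold up and 2 (10%) down, beside 3.05% and 1.1% of all genes with a probe.

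**Figure D3:**
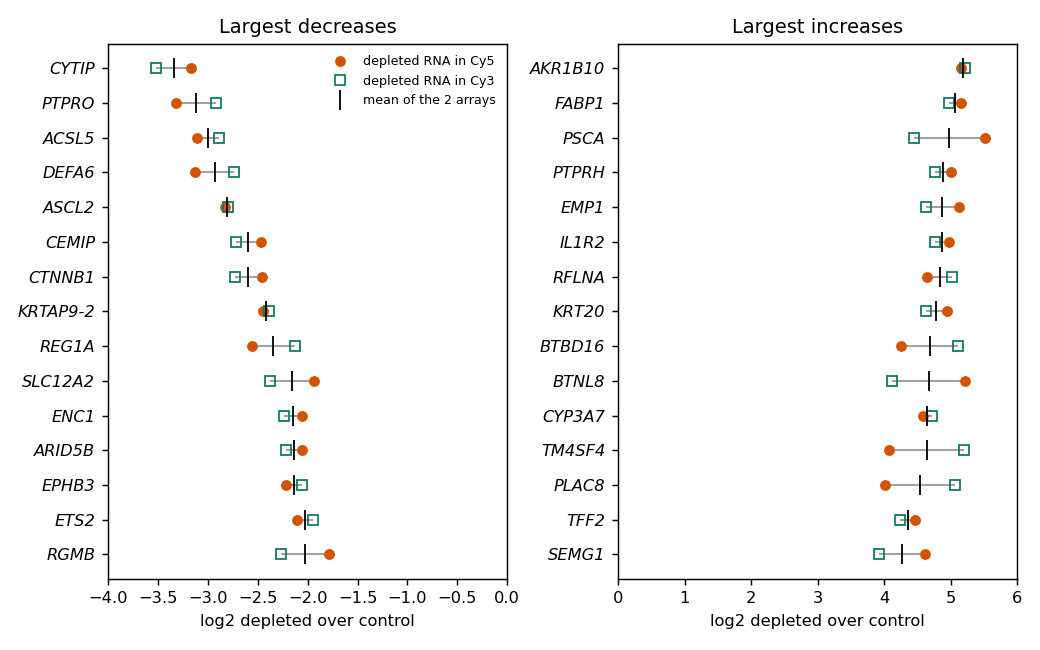
Log2 depleted over control (x axes) of the 15 genes with the largest decreases (left) and the 15 with the largest increases (right) among genes past 2-fold on each array and well above background in the brighter RNA; circles are the array with depleted RNA in Cy5, squares the dye-exchanged array, and ticks their mean. The left axis ends at −4 and the right axis at 6, and both arrays lie on the same side of 0 for every gene.

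Outside the cell type lists, the largest increase of all was that of AKR1B10, an aldo-keto reductase that reduces retinal and other aldehydes, with 337 and 284 in control and 11982 and 10461 in depleted RNA, a change of 5.18. EMP1, a tetraspan protein of epithelial membranes, changed by 4.87, IL1R2, the decoy receptor for interleukin-1, by 4.87, and RFLNA, an actin regulator, by 4.83. Genes not well above background in control RNA were PSCA, a GPI-anchored surface protein (at least 9.36-fold higher), PTPRH, a receptor tyrosine phosphatase (at least 12.9-fold), TM4SF4, a tetraspan protein (at least 12.4-fold), and BTNL8, a butyrophilin-like protein that intestinal γδ T cells recognize (at least 6.81-fold). BTBD16 and CYP3A7 changed by 4.68 and 4.65, and SEMG1, with such a bound, was at least 5.32-fold higher. Among all genes that rose, 14 had a bound of this kind. The largest decreases beside those named above began with CYTIP, which regulates cytohesin and integrin adhesion (1372 and 1226 in control, 153 and 107 in depleted RNA, mean −3.34). After it came ACSL5, a fatty acid activating enzyme (−3.0), CEMIP, a hyaluronan-binding protein (−2.6), KRTAP9-2, a keratin-associated protein (−2.42), and ARID5B, a chromatin factor (−2.14).

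Detoxifying enzymes rose in part, where 4.58% of all genes measured rose and 1.21% fell. Of 35 aldo-keto reductases and NRF2 targets, 23 were measured, 5 rose, and 0 fell, with a median of 0.31, and KEAP1, 1 of the 5, rests on 1 array. AKR1C1 changed by 2.43, AKR1C3 by 1.8, and ABCC3, an exporter of conjugates, by 3.41. Of 50 genes of xenobiotic and retinoid metabolism, 20 were measured, 7 rose, and CYP26B1 fell (−1.8). The glucuronosyltransferases UGT1A6 (2.11), UGT2B17 (2.06), and UGT2B15 (1.95) rose together with DHRS3, which turns retinal back to retinol (1.62). Members of the AKR1C, UGT1A, UGT2B, CEACAM, and keratin-associated families are nearly identical in sequence, so their probes may share targets, which was not tested.

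Adhesion genes contributed 7 increases and 0 decreases among 22 measured of 38. Over all genes measured 4.58% rose and 1.21% fell, and the list counts in this paragraph stand beside these shares. The adhesion genes that rose were CEACAM1, CEACAM5, CEACAM6, and CEACAM7, carcinoembryonic antigen family members of the apical surface (3.25, 3.32, 3.6, and 2.68), the intestinal cadherin CDH17 (2.08), and the claudins CLDN4 (1.29) and CLDN23 (1.94). The CEACAM genes also belong to the absorptive enterocyte list and were counted among its increases. Keratins of simple epithelia rose too, KRT19 by 2.97, KRT8 by 1.68, and KRT18 by 1.3. In the interleukin-1 and inflammation list, 12 of 34 genes were measured and 4 rose. Of these, only IL1R2 and CCL28, a chemokine of mucosal epithelia (1.93 and 3.45), were past 2-fold on both arrays. The 1 decrease, NFKBIA, rests on 1 array. Interferon-stimulated genes had 25 of 43 measured, of which 5 rose past 2-fold on each array and 0 fell, but only 2 rose with another background correction and normalization (normexp and loess) and only 2 where both channels had to be over background. OASL, OAS1, and ISG20, which act against viral RNA, changed by 2.01, 1.74, and 1.68. YAP/TEAD targets had 19 of 29 measured, 2 of which rose, MYOF (2.4) and F2RL1 (1.49), with a list median of 0.03.

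Growth-related genes shifted less but more evenly. All 50 measured genes of DNA replication and mitosis, of 56 listed, had a mean below 0, with a median of −0.59 and 1 of them, RFC3, past 2-fold (−1.5). Of the 42 measured ribosome biogenesis genes, 41 were below 0, with a median of −0.43 and none past 2-fold (0 up, 0 down). Housekeeping genes had 12 of 20 below 0 and a median of −0.08, and all genes had a median of −0.01 with 4798 of 9439 below 0. MKI67, the proliferation marker, was below the signal filter. Among G1 regulators, 27 of 31 were measured. CDK6, the G1 kinase, and MYC fell (−1.33 and −1.15), MXD1, a MAX partner that opposes MYC, rose (1.78), and the CDK inhibitor CDKN2B was at least 3.15-fold higher. CDKN1A, which encodes the CDK inhibitor p21, changed by 0.71 and 0.48, and its mean of 0.60 lay within 2-fold. Cholesterol synthesis genes leaned the other way, with 29 of 32 measured genes above 0, a median of 0.39, and none past 2-fold (0 up, 0 down).

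Among other signalling pathways of the crypt, the BMP and TGF-β list had 20 of 41 measured, a median of −0.20, 2 decreases, and 0 increases. ID1, a helix-loop-helix inhibitor of differentiation and BMP target, had signals of 17340 and 10336 in control and of 5140 and 3625 in depleted RNA, a change of −1.63, and SMAD9, a BMP signal transducer, changed by −1.86. In the Notch list 16 of 30 genes were measured, and NOTCH1, the 1 gene past 2-fold, was so on 1 array (−0.73 and −1.56). ATOH1, the Notch-repressed factor of the secretory lineage, was below the signal filter.

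Most changed genes had no neighbour in the genome that changed the same way. Ordered by the RefSeq annotation among measured genes, 91 of the 432 genes that rose (21.1%) had an immediate neighbour that also rose, against 8.16% of the other genes with a neighbour that rose. For the genes that fell it was 8 of 114 (7.02%) against 2.33%. The longest run of increases held TFF3, TFF2, TFF1, RSPH1, SLC37A1, and PDE9A, and others were the UGT2B, CEACAM, and FUT6, FUT3, and FUT5 clusters, where gene families lie in tandem. The longest run of decreases was STARD13, RFC3, RFXAP, and SMAD9, which are not a family. Of these, STARD13 changed by −1.29 and RFXAP by −0.86 and −1.53.

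The level of these genes in unperturbed cells was read from the Ls174T si-control array, as log2 over reference RNA. Genes that fell had a median of 0.95 and genes that rose 0.52, where all genes had 0.39. Among the 15 largest decreases, 14 were more than 1.5-fold above the reference, led by PTPRO (6.28), KRTAP9-2 (5.68), DEFA6 (5.53), and ASCL2 (5.32). Of the 12 largest increases measured there, 9 were more than 1.5-fold below it, among them FABP1 (−3.72) and AKR1B10 (−2.18). KRT20 (4.41), IL1R2 (2.64), and TFF2 (1.99) were above it and so were expressed by Ls174T cells before the depletion. The choice of genes bears on these levels. A decrease was listed only if control RNA was well above background on both arrays of the pair. Several of the listed increases were not well above background in control RNA. Part of this contrast was therefore set in advance.

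The same genes were then read in Ls174T cells depleted of the Wnt coactivators under study, each on 1 array and all set against the same si-control array, which the β-catenin pair does not share. Past 1.5-fold after MLLT10/AF10 depletion were 0.621% of the genes up and 0.139% down, after BRG1 depletion 1.87% up and 2.63% down, and after p300 depletion 2.98% up and 4.12% down. The measured absorptive enterocyte genes, risen or not, had medians of 0.23 after MLLT10/AF10 depletion (3 of 22 up, 0 down), −0.45 after BRG1 depletion (2 of 22 up, 10 down), and −0.41 after p300 depletion (1 of 20 up, 8 down). For the goblet list the medians were 0.04 (3 of 23 up, 0 down), −0.36 (0 up, 8 down), and −0.73 (0 up, 15 down) in the same order. Of all genes that rose after β-catenin depletion, 7.58% were up and 15.9% down after BRG1 depletion. After p300 depletion these shares were 7.94% and 23.8%. Of the genes that fell, 3.54% were up and 10.6% down after BRG1, and 8.85% up and 15.9% down after p300 depletion. FABP1 changed by 0.67 after MLLT10/AF10, −1.03 after BRG1, and −1.88 after p300 depletion, and AKR1B10 by 1.02, −1.29, and −1.86. ZG16 (−2.3), IL1R2 (−2.24), and MUC13, a membrane mucin (−2.25), had large decreases after p300 depletion, while they changed by 2.88, 4.87, and 1.34 after β-catenin depletion.

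All of the 12 largest increases measured on the MLLT10/AF10 array were above 0 there, with a median of 0.64, a lowest value of 0.33 (TFF2), a highest of 1.51 (CYP3A7), and 7 past 1.5-fold. Of the same genes, 6 of 12 were above 0 after BRG1 and 3 of 11 after p300 depletion. A gene counted as measured on these arrays if either the sample's RNA or the reference RNA was over background. PSCA, PTPRH, and PLAC8 were far below the reference on the si-control array (−4.71, −4.61, and −5.06). Control RNA of these genes was not well above background on the pair, so their MLLT10/AF10 values (0.36, 0.61, and 0.38) are uncertain. Over all genes, 4467 of 9342 were above 0 after MLLT10/AF10, 4320 of 9358 after BRG1, and 4822 of 9351 after p300 depletion. Of all genes that rose, 309 of 407, 173 of 409, and 145 of 403 were above 0 in the same order, with medians of 0.16, −0.08, and −0.18. The crypt stem and progenitor list had medians of −0.12, 0.04, and −0.17 in the same order, with 3, 1, and 4 of 24 genes past 1.5-fold down. CDK6 (−0.87) and SMOC2 (−0.63) were lowest after MLLT10/AF10 depletion among the members that fell after β-catenin depletion. ASCL2 changed by −0.29, 0.04, and 0.51, and AXIN2 by 0.18, 0.01, and −0.22. DEFA6 fell after BRG1 and p300 depletion (−2.73 and −3.93) as it did after β-catenin depletion, and was higher after MLLT10/AF10 depletion (0.83). Interferon-stimulated genes were above control after p300 depletion, with 9 of 25 past 1.5-fold up and a median of 0.47. With 1 array per depletion none of these differences has a replicate check.

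**Figure D4:**
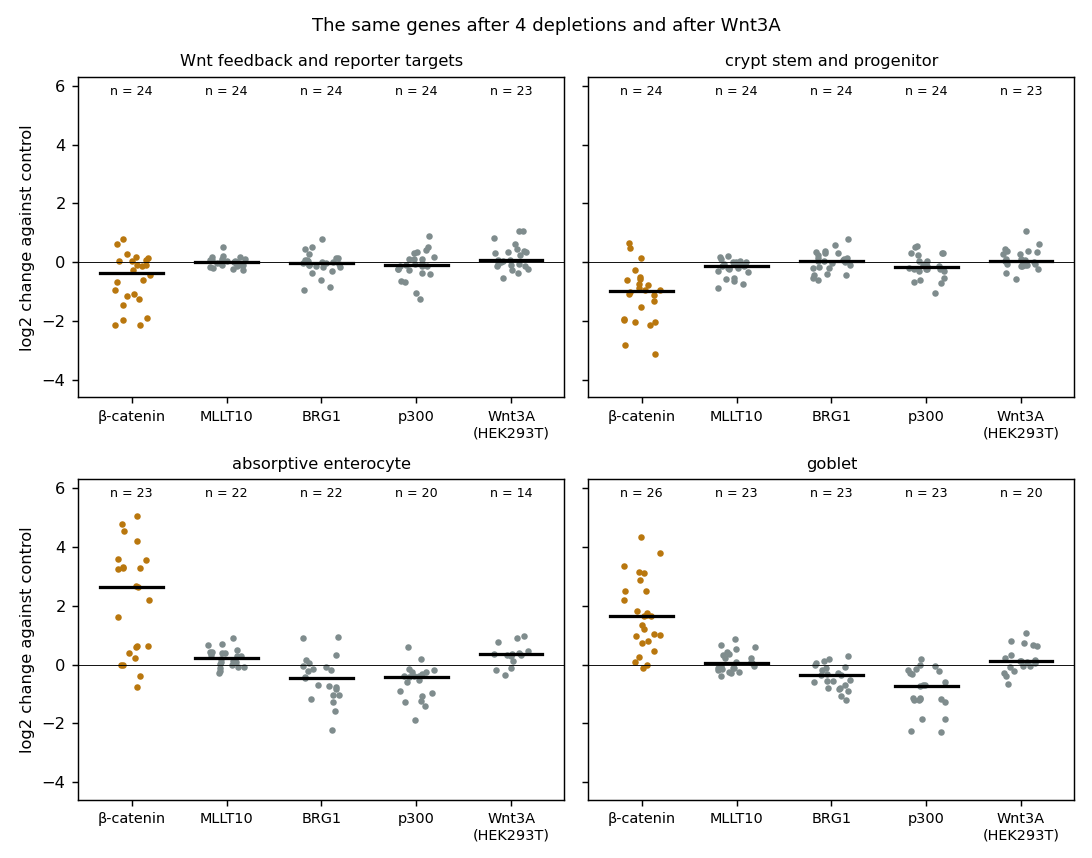
Log2 change against control (y axis) of the measured genes of 4 lists (panels) after depletion of β-catenin (orange), MLLT10/AF10, BRG1, or p300 in Ls174T cells and after Wnt3A in HEK293T cells (grey), with medians as black bars and the number of genes above each column. The absorptive enterocyte and goblet lists, whose medians are above 0 after β-catenin depletion (2.63 and 1.65), have medians below 0 after BRG1 and p300 depletion.

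In HEK293T cells, an embryonic kidney line with an intact Wnt pathway, the Wnt3A change was taken as the si-control array after Wnt3A minus that in control medium, 1 array each. Past 1.5-fold were 1.94% of the genes up and 0.789% down. Of the genes that fell after β-catenin depletion in Ls174T cells, 8 of 107 were up (7.48%) and 3 down, and of those that rose, 31 of 375 were up (8.27%) and 11 down. Of the 17 crypt and Wnt target genes that fell, 16 were measured, with a median of 0.19, and 4 were past 1.5-fold up and 0 down. Of these 4, AXIN2 changed by 1.08 after Wnt3A, TCF7 by 0.82, EPHB3 by 0.62, and SP5 by 0.61. The other 12 lay within 1.5-fold, 6 of them below 0, among them MYC (−0.25). CCND1, at its control level after β-catenin depletion in Ls174T cells, was among the higher genes (1.07). The counts of this comparison moved with the processing, and with background-subtracted median signals 5 of the genes that fell were up and 0 down.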

How the data were processed

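Total RNA of Ls174T and HEK293T cells was labeled with Cy3 or Cy5 and hybridized in pairs to Agilent human gene expression arrays. The authors processed the scans with Agilent Feature Extraction, whose version is 10.5.1.1 per the file headers and 8.5.1.1 in the submitters' processing notes. The deposited intensities give each channel of a feature as a median signal with its local background and as a processed signal, after the program's background subtraction and dye normalization. The deposited log10 ratios are of processed Cy5 over Cy3 signal, and the program set 25.2% and 36.2% of them to 0 on the pair for want of signal. Such zeros enter the means and medians given without the signal filter. The deposited table of values holds the same log10 ratios. In the study's methods each sample was paired with reference RNA, whereas the pair is labelled with si-control RNA as the partner, and the labels were followed.

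Ratios were converted to log2 as depleted over control RNA and averaged over both arrays, then over the spots of a probe and the probes of a gene. Control spots, features with outlier flags, and features not over 2-fold background in either channel on both arrays were left out. Thresholds were 2-fold on the pair and 1.5-fold on the other arrays. A change on those is the difference from the si-control array. Symbols came from RefSeq accessions (27612 of 29084 features, 94.9%). The number of arrays limits the precision. The median error of the program was 0.15 for a mean change, probes with at least 5 usable spots had median SDs between spots of 0.03 and 0.07, and no feature was saturated (0). Both arrays lay on 1 slide, whose scan time no other array shared. Members, gene lists, and rules were chosen with earlier results of these data known. Genes named are the siRNA target, the 15 largest increases and decreases, up to 5 changed genes per list or else the 4 largest in each direction, defining markers whatever their change, and the 5 genes that differ most between the arrays. Some further list members were named after their values were seen. Alternatives were normexp with an offset of 50 and loess in limma 3.58.1 (R 4.3.3), centred ratios of background-subtracted median signals, the deposited table, other filters and folds, and each array alone. Python 3.11.15, numpy 2.4.6, and pandas 2.3.3 were used. Simulated data served to check the code of the calls. Their noise nearly cancelled between the arrays, so they do not measure how often real calls are wrong.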

Additional observations from a re-analysis of the deposited data

How the results depend on the processing

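The 992 features past 2-fold (751 up, 241 down) became 984 to 1159 on either array alone (727 to 854 up, 257 to 305 down), and the genes past 2-fold 424 to 477 up and 120 to 137 down. On either array alone 8 to 9 Wnt targets and 11 to 14 crypt genes fell, 14 enterocyte and 16 to 19 goblet genes rose, and 0 members of these lists moved the other way. Past 2-fold on each array were 769 features. With normexp and loess 599 features were past 2-fold (98 down), 49 genes fell, and 4 Wnt targets fell, as did 0 genes of DNA replication and 0 of xenobiotic metabolism, so RFC3 and CYP26B1 were not called. With centred median signals 149 features and 75 genes fell. With both channels over background 623 features passed (459 up), and 277 genes and 9 enterocyte genes rose. Without a filter on dim features there were 1763 (1160 up, 603 down), 190 genes fell, and 1 goblet gene fell. At 1.5-fold 3152 features passed (1867 up, 1285 down), with 1025 genes up and 616 down, 2 Wnt targets and 1 crypt gene up, 18 crypt genes down, and 1 enterocyte gene down, and at 3-fold 377 (312 up, 65 down), with 188 genes up, 34 down, 4 Wnt targets and 7 crypt genes down. No feature past 2-fold reversed past it on either array alone, with normexp and loess, or with centred median signals (0 in each). The other settings keep the same ratios, so they could not show a reversal. The share of increases, 75.7%, was 83.6% with normexp and loess, 65.8% without the filter, and 59.2% at 1.5-fold. The correlation of the arrays was 0.877 over features well above background and 0.876 with normexp. SP5 reversed to 0.019 where only its probe well above background in both RNAs was kept. The Paneth and antimicrobial median went from 1.84 to −0.00091 without the filter, which most members of the list had not passed. The cause of these shifts was not tested.

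For Wnt3A, genes that fell after β-catenin depletion were up in 4 and down in 1 with both channels over background and in 5 and 0 with centred median signals, chosen after seeing the data. Genes that rose were up in 15 and down in 4, and in 36 and 2. With normexp and loess the down counts were 28 and 182, and 19 genes that rose were up. There the median of all genes moved from 0.01 to −0.16. The background fitted in Cy5 on the control medium array was −1548 (SD 2021), far below 0, against −13.0 (SD 1.70) on the Wnt3A array. The normexp values are therefore uncertain, and whether the fit accounts for the shift was not tested. No paired analysis was possible because the pair holds 1 RNA of each kind and the other groups have 1 array each.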
